A study of Mus musculus with 21 samples.

Results

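Adipogenic transcription factors are the DNA-binding proteins that turn a precursor cell into a fat cell and keep it one. 9 of their genes were followed here: Pparg, Cebpa, Cebpb, Cebpd, Zfp423, Ebf1, Klf4, Klf5 and Klf15. The question was where the estradiol-activated receptor ERα (estrogen receptor alpha) sat on chromatin at these genes in each tissue. Peaks were taken from 5 deposited ERα ChIP-seq peak lists when the summit lay inside the span of a gene or within 25 kb of it. This gave 101 of the 72690 peaks on chromosomes 1 to 19 and X. The choice of peaks at these genes rests on position alone and uses no measured value. The genes themselves were chosen with earlier results of these data known.

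All libraries came from CD-1 mice aged 10 weeks that received estradiol or vehicle before sacrifice. The anti-ERα antibody was sc543. The groups were vWAT with estradiol (4 libraries), vWAT with vehicle (2), scWAT with estradiol (3), BAT with estradiol (1) and Liver with estradiol (2), where the tissue names are those of the labels. Each group has 1 deposited list, and these hold 20715, 7400, 17971, 5193 and 21411 usable peaks in that order. They give no values per library and their read depth is unknown, so no comparison below has a replicate test. The sources used here do not give the dose, the route, the time, the sex, the pooling of animals or whether libraries came from separate mice. Peak lists hold no expression, so the tissue labels could not be checked by marker RNA. Peaks at marker genes did not follow the labels throughout. All 4 adipocyte genes (Adipoq, Plin1, Fabp4 and Lep) had a vWAT estradiol peak (61.5% of all protein-coding genes), and Adipoq and Fabp4 also a Liver peak (67.5%). Of these 4 genes, 3 had a scWAT peak (61.0%), 1 a vehicle peak (44.8%) and 1 a BAT peak (29.7%). The macrophage gene Cd68 and the mammary epithelium gene Krt8 had a peak in all 5 lists. Adgre1, also of macrophages, and Krt18, also of mammary epithelium, had a peak in Liver alone. Of 4 hepatocyte genes, Alb and Apoa1 had a Liver peak, Apoa1 also had a vWAT estradiol peak, and Ttr and Serpina1a had a peak in no list. Of 4 brown fat genes, Zic1 and Lhx8 had a peak in the BAT list alone, whereas Ucp1 and Cidea had none there. Ucp1 had peaks in vWAT estradiol and scWAT, and Cidea in vWAT estradiol, vWAT vehicle and Liver.

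Fat cell formation runs as a relay. C/EBPβ and C/EBPδ, encoded by Cebpb and Cebpd, are induced early, together with the zinc finger factors KLF4 and KLF5, and they switch on Pparg and Cebpa. PPARγ, a nuclear receptor, and C/EBPα then sustain each other and drive the genes of lipid storage. ZFP423 and EBF1 act further upstream in committed precursors, and KLF15 acts late and also controls metabolic genes in the mature cell. Pparg is read from alternative promoters, and the isoform PPARγ2, which starts from an internal promoter, is characteristic of fat.

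In the vWAT estradiol list a peak of its own lay over part of 2 of the 3 Pparg promoter windows for which RefSeq gives a sequence (build GRCm38.p6, the assembly of mm10). These stretches are shown because they were the sole places where a peak in any of the 5 lists reached an annotated promoter window of the 7 genes that have one in the RefSeq table. The window runs from 250 bases before to 50 bases after the transcription start. Only the bases covered by the peak are given, 5′ to 3′ on the plus strand, with each GGTCA, a single arm of the estrogen response element, in capitals.
Pparg upstream promoter, chr6:115362099-115362358: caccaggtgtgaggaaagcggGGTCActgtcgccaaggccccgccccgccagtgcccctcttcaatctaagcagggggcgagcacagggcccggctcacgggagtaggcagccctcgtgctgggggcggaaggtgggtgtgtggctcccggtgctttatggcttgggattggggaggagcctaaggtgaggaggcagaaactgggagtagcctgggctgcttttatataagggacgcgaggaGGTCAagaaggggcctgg
Pparg internal promoter, chr6:115421816-115421957: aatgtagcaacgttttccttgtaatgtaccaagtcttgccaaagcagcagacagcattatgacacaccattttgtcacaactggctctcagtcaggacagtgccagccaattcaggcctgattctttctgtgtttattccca

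The upstream stretch covers 260 bases with 64.2% G and C and holds GGTCA 2 times. The third Pparg window, farther upstream, had no peak over it. The internal stretch covers 142 bases with 44.4% G and C and holds GGTCA on neither strand. The internal peak ends 109 bases before the start. The only GGTCA of that promoter window, on the minus strand, lies 50 bases before the start and outside the peak. Over the 11 promoter windows listed for 7 of the 9 genes, the full palindrome, GGTCA and TGACC with any 3 bases between them, was found in none. It occurs in 0.0700% of all 32851 promoter windows of the table. All motifs were searched on both strands, and each palindrome also counts as GGTCA. The letters GGTCA occur in 40.5% of all windows, and the GC box GGGCGG in 35.7%. A match or its absence describes these letters in these windows and nothing about the receptor. Cebpd and Klf5 have no entry in the promoter table.

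With estradiol, ERα peaks were listed at all 9 genes in vWAT, against 61.5% of the 21627 protein-coding genes by the same rule. The count was 8 of 9 in scWAT (61.0% of all genes), 8 of 9 in Liver (67.5%) and 4 of 9 in BAT (29.7%). In vWAT with vehicle it was 6 of 9, where 44.8% of all genes had a peak. Pparg and Zfp423 had a peak in every list, as did 21.1% of all genes. Klf5 had the fewest, 1 in each of the vWAT lists and no peak in scWAT, BAT or Liver.

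A longer gene can hold more peaks by its length. Cebpa, Cebpb, Cebpd and Klf4 span under 10 kb, and of the protein-coding genes of that class 47.1% had a vWAT estradiol peak and 36.7% a vehicle peak. Klf5 and Klf15 span 10 to 100 kb (68.9% and 50.2%), and Pparg, Zfp423 and Ebf1 span over 100 kb (72.5% and 45.1%). In scWAT the shares of the 3 classes were 47.8%, 68.1% and 69.2%, in BAT 23.1%, 32.0% and 40.3%, and in Liver 51.4%, 74.6% and 85.3%. The BAT list, the shortest, has 5193 peaks. With the other lists limited to that length by p-value, 6 of the 9 genes kept a peak in vWAT estradiol (28.8% of all genes), 5 in vehicle (37.3%), 4 in BAT (29.7%), 3 in scWAT (27.8%) and 3 in Liver (35.8%).

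**Figure D1:**
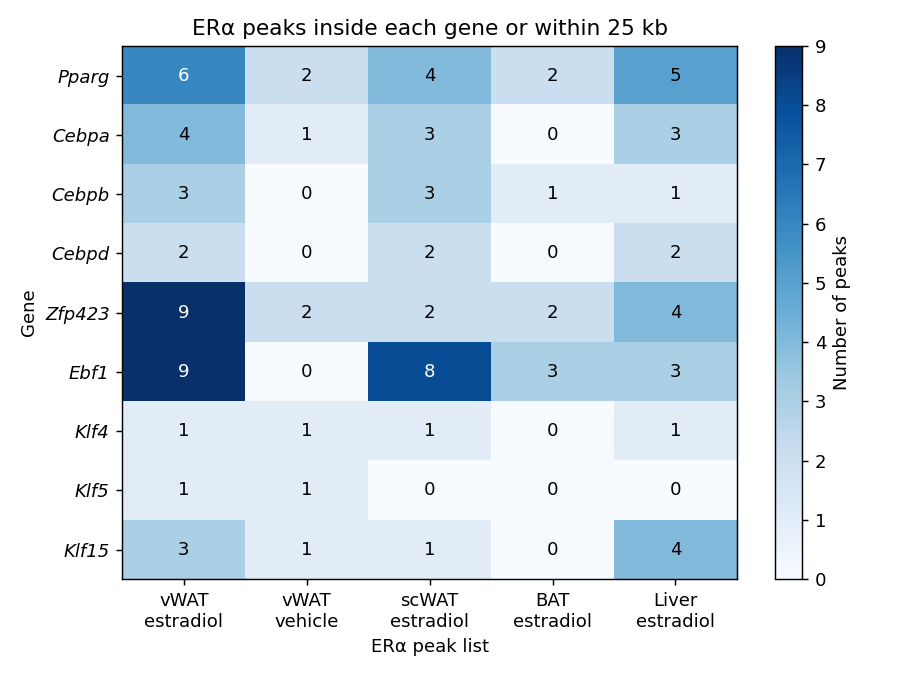
Number of ERα peaks with a summit inside each gene or within 25 kb, for the 9 genes (rows) in the 5 peak lists (columns), with the count printed in each cell. Zfp423 and Ebf1 held the most in vWAT with estradiol, 9 each, and Ebf1 had no peak with vehicle. The lists differ in length.

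The 9 genes held 38 peaks in vWAT estradiol, 8 in vWAT vehicle, 24 in scWAT, 8 in BAT and 23 in Liver. Per 100 kb of sequence searched this was 2.86 peaks in vWAT estradiol, against 1.39 over all protein-coding genes. With vehicle the density was 0.603, against 0.689. The values were 1.81 and 1.34 in scWAT, 0.603 and 0.379 in BAT, and 1.73 and 1.44 in Liver. The vWAT lists differ in length and in the number of libraries behind them, so the counts with and without hormone cannot be set against each other directly. At 5193 peaks per list the genes held 11 peaks with estradiol and 5 with vehicle in vWAT, 8 in BAT, 4 in scWAT and 3 in Liver. At that length the lists reached 28.8%, 37.3%, 29.7%, 27.8% and 35.8% of all genes in the same order. The peak density over all genes was not computed at that length.

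**Figure D2:**
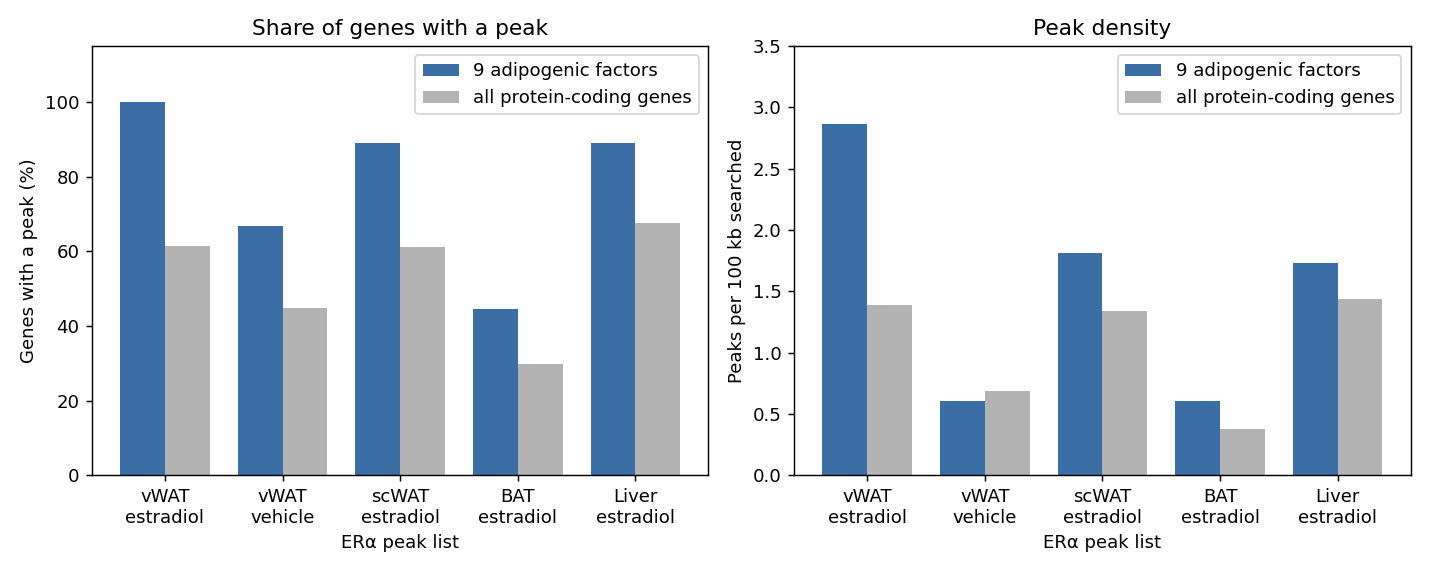
Left, the share of genes with a peak in each list for the 9 genes and for all protein-coding genes, in percent. Right, the number of peaks per 100 kb of gene span plus window for the same genes, where the vWAT estradiol bars stand at 2.86 and 1.39 and the vehicle bars at 0.603 and 0.689.

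The strength of these peaks was read from the enrichment ratio that the authors gave each peak, and only as a rank within a list. The lists differ in length, so percentages from different lists are not like measures. The BAT values rest on 8 peaks and 1 library, and 33.5% of the BAT list passed a −log10 q of 2. The median peak of the 9 genes stood at the strongest 66.9% of the vWAT estradiol list, 52.9% of the vehicle list, 82.8% of scWAT, 30.6% of BAT and 54.8% of Liver, where a low percentage means a strong peak. Outside the strongest 50% of their list stood 23 of 38 peaks in vWAT estradiol, 4 of 8 with vehicle, 18 of 24 in scWAT, 3 of 8 in BAT and 12 of 23 in Liver. 5 peaks in all ranked among the strongest 10% of their list, and all of them lay inside Zfp423. Of the 23 Liver peaks, 4 had the enrichment of 3.33 that 4183 peaks of that list share, and 10 passed a −log10 q of 2, against 46.5% of the whole Liver list. In vWAT estradiol 32 of the 38 peaks passed it, against 89.9% of that list. In scWAT 18 of 24 passed (88.0% of that list), with vehicle 5 of 8 (70.9%) and in BAT 5 of 8 (33.5%).

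Zfp423, the factor that marks cells committed to the fat lineage, held the strongest ERα peaks of the group, at a pair of sites inside the gene. The first lay at chr8:87932715-87933410 in vWAT estradiol, with its summit 26.5 kb downstream of the nearest annotated start. Its enrichment was 16.5 and it ranked 236 of 20715. The same site had a peak in vWAT vehicle (10.5, rank 874 of 7400), in scWAT (14.0, rank 163 of 17971) and in BAT (10.4, rank 103 of 5193). The 4 summits lay within 40 bp of each other, and the Liver list had no peak there. This was the most widely shared of the 74 separate regions found at the 9 genes, and no region was held by all 5 lists.

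The second Zfp423 site, at chr8:87702789-87703539 in vWAT estradiol, lay deeper in the gene, 101.3 kb downstream of the nearest annotated start. Its enrichment was 13.0 with rank 895 in vWAT estradiol, 11.2 with rank 442 in scWAT, and 5.30 with rank 979 in BAT. It was listed neither with vehicle nor in Liver. The other 7 vWAT estradiol peaks of Zfp423 were found in no other list, the strongest of them at 8.26 (rank 3321) and the weakest at 2.65 (rank 20695). Of the 2426 genes over 100 kb, 3.71% had as many vWAT estradiol peaks as Zfp423 or more, whereas its 2 scWAT peaks were matched by 43.9%. Zfp423 spans 300 kb, and the genes of this class were not matched to it on span. The 4 Liver peaks of Zfp423 lay at other positions, 3 of them at the shared low enrichment of 3.33 and the fourth at 4.14.

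Ebf1, which acts with ZFP423 in precursors and is also a B cell factor, had peaks in all estradiol lists and none with vehicle. There were 9 in vWAT, 8 in scWAT, 3 in BAT and 3 in Liver. Of the genes over 100 kb, 3.71% had at least as many in vWAT, 2.76% in scWAT, 2.89% in BAT and 39.0% in Liver. Ebf1 spans 390 kb, and the genes of this class were not matched to it on span. The vehicle list is shorter than the vWAT estradiol list, and 45.1% of the genes over 100 kb had a vehicle peak. At 5193 peaks per list Ebf1 kept 1 peak in vWAT estradiol, 3 in BAT, 1 in Liver and none in scWAT. The strongest in vWAT estradiol, at chr11:44787936-44788455 (7.28, rank 4345), lay 168.0 kb downstream of the nearest start and had no counterpart in another list. 3 vWAT estradiol peaks were also found in scWAT and 1 in BAT, all of them weak, with enrichments in vWAT of 4.77 or less. In scWAT the strongest Ebf1 peak (3.19, rank 11160 of 17971) was one of those shared with vWAT, and in BAT the strongest (4.73, rank 1533 of 5193) was not. The closest summits to the gene's 5′ end were 0.907 kb before it in BAT and 0.850 kb after it in scWAT. The 3 Liver peaks overlapped no fat peak, and the strongest of them had an enrichment of 5.39 (rank 3688 of 21411).

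**Figure D3:**
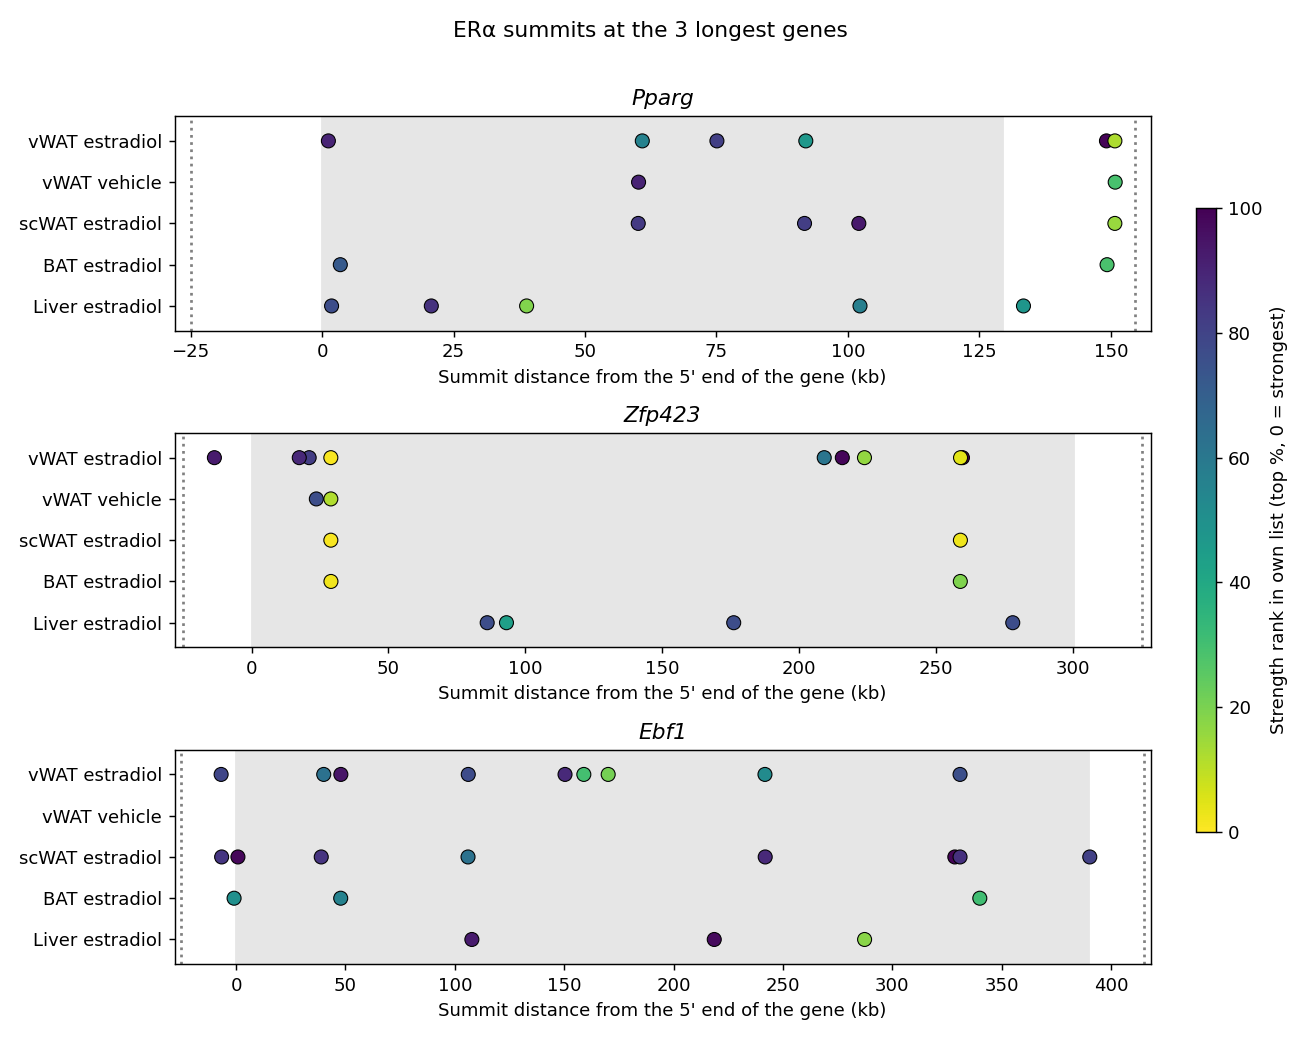
Positions of ERα summits at Pparg, Zfp423 and Ebf1, in kb from the 5′ end of the gene span, with 1 row per peak list. The grey area is the gene, dotted lines mark the 25 kb limits, and colour gives the rank of the peak in its own list (yellow strongest). The shared Zfp423 sites stand out as columns of bright points, 1 in all 4 fat lists and 1 in the fat lists with estradiol alone. Neither column reaches Liver.

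At Pparg, the main regulator of fat cell identity, the strongest peak lay beyond the 3′ end of the gene rather than at its promoters. In vWAT estradiol it covered chr6:115511245-115511921, 21.2 kb past the gene end, with an enrichment of 9.23 (rank 2575 of 20715). It was also listed in vWAT vehicle (6.26, rank 2145 of 7400) and scWAT (5.82, rank 2742 of 17971), with summits within 63 bp. Neither BAT nor Liver had a peak at this site. At 19.7 kb past the gene end, BAT had its strongest Pparg peak (4.82, rank 1494 of 5193), which overlapped a faint vWAT estradiol peak (3.002, rank 20549). Both stand near the edge of the 25 kb window.

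The peaks that reached Pparg promoter windows were weaker. The peak at the upstream promoter had an enrichment of 3.60 (rank 18625) and its summit 268 bp before the start. At the internal promoter the vWAT estradiol peak had an enrichment of 4.60 (rank 11538) with its summit 296 bp before the start. No other list held either of these peaks. The vehicle and scWAT lists instead shared a site a little farther upstream of the internal start, with summits 1003 and 1067 bp before it, at enrichments of 3.61 (rank 6683) and 2.82 (rank 14919). Liver had a peak with its summit 338 bp after the upstream start (3.33) and BAT had one 2000 bp after it (3.81). Among these peaks near a Pparg start only the vehicle and scWAT peaks overlapped. The vehicle, BAT and Liver peaks had a −log10 q of 1.31, 1.02 and 1.29. The share of all genes with a summit this near a start was not computed.

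Inside Pparg a further site 30.8 kb downstream of the internal start was held by vWAT estradiol (5.03, rank 9675) and scWAT (2.85, rank 14681). The strongest of the 5 Liver peaks was 5.27 (rank 3952 of 21411), 22.3 kb upstream of the internal start, where no fat list had a peak. A weak peak 40.9 kb downstream of that start in scWAT (2.62) overlapped a Liver peak (3.39). Of the genes over 100 kb, 12.1% had at least as many vWAT estradiol peaks as Pparg, with 6, and 16.6% as many vehicle peaks, with 2.

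Cebpa, the partner of PPARγ in the mature fat cell, had its vWAT estradiol peaks downstream of the gene. There were 4, with summits 6.88, 7.58, 11.9 and 19.4 kb after the start. The one farthest away, at chr7:35138352-35138944, was the strongest (6.03, rank 6439 of 20715), and the others had enrichments of 5.29, 4.87 and 3.98. Of the genes under 10 kb, 4.90% had 4 or more. All but the peak at 7.58 kb were also listed in scWAT, with enrichments of 3.78, 3.48 and 2.78 from the nearest to the farthest, so the order of strength was not the same. The single vehicle peak (3.98, rank 5692 of 7400) lay inside the gene, 1.54 kb after the start, where no estradiol list had one. BAT had no peak at Cebpa, and the 3 Liver peaks (3.44 to 3.98, the strongest at rank 10234 of 21411) overlapped none of the fat peaks.

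At Cebpb, an early factor of the relay that also serves in the acute inflammatory response, no vehicle peak was listed. The strongest vWAT estradiol peak, at chr2:167713365-167714021, had its summit 24.7 kb after the start, close to the limit of the window (7.98, rank 3582 of 20715). It was shared with scWAT (5.36, rank 3231 of 17971) and BAT (4.73, rank 1533 of 5193), with summits within 90 bp. A second site 1.02 kb before the start was held by vWAT estradiol (6.93, rank 4779) and scWAT (2.82, rank 14928). The 1 Liver peak, 9.21 kb after the start (4.36, rank 7402 of 21411), overlapped a scWAT peak (2.82) and no vWAT peak. Of the genes under 10 kb, 13.1% had at least the 3 vWAT estradiol peaks of Cebpb, and 51.4% at least its 1 Liver peak.

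Cebpd, the other early C/EBP gene, had 2 peaks in vWAT estradiol, 2 in scWAT and 2 in Liver, and none with vehicle or in BAT. Of the genes under 10 kb, 27.4%, 28.8% and 28.4% had at least as many in those 3 lists. The site 24.0 kb from its span in vWAT estradiol (4.03, rank 15866) was found in scWAT (3.06, rank 12565) and Liver (4.94, rank 4930). The nearest protein-coding gene to that site was Mzt2, which lies beside Prkdc, so it may not belong to Cebpd. It was the only vWAT estradiol peak of the 9 genes that Liver shared. The other vWAT estradiol peak, 0.613 kb from the gene (3.62), lay inside the neighbouring Spidr, whose span overlaps that of Cebpd. The strongest peak of the 9 genes in Liver by enrichment lay here, 0.381 kb outside the span, at chr16:15886776-15887087 (5.54, rank 3282 of 21411), and no fat list held it.

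**Figure D4:**
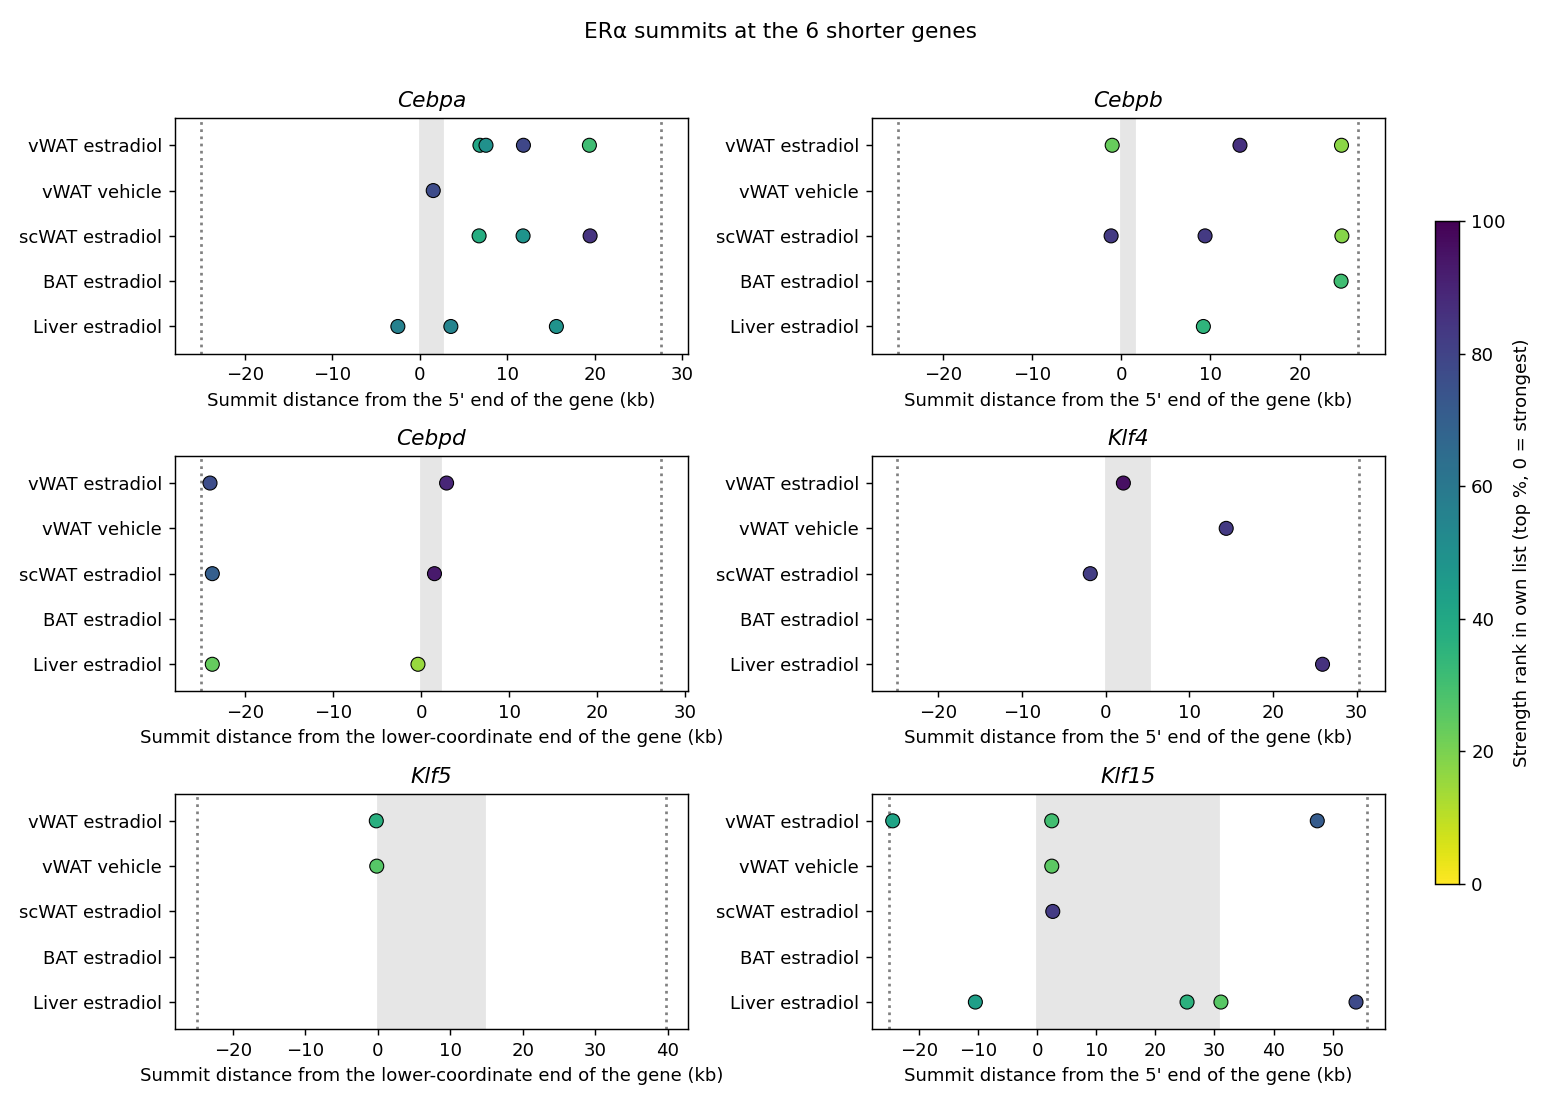
Positions of ERα summits at the 6 shorter genes, in kb from the 5′ end of the gene (from the lower-coordinate end for Cebpd and Klf5, whose strand was not at hand), with 1 row per peak list. Grey marks the gene, dotted lines the 25 kb limits, and colour the rank within the list. The Klf5 summits of both vWAT lists coincide at the gene's edge, and the Cebpa summits of vWAT and scWAT with estradiol lie on the downstream side.

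The 3 KLF genes showed different layouts. Klf5, a factor induced by the early C/EBPs, had 1 vWAT peak beside the end of its span, 0.218 kb away with estradiol (5.57, rank 7622 of 20715) and 0.156 kb away with vehicle (6.66, rank 1959 of 7400). It was the one gene of the 9 whose vWAT estradiol peaks were all held with vehicle. Klf4, an early activator of Cebpb, had a weak peak in each of 4 lists at positions that did not overlap. These were 3.35 (rank 19819) in vWAT estradiol, 3.83 (rank 6035) with vehicle, 2.84 (rank 14790) in scWAT and 3.31 (rank 16630) in Liver. A stronger vWAT estradiol peak (7.22, rank 4417) lay 30.7 kb from the Klf4 span, outside the window, and scWAT had one 30.7 kb away too (5.64, rank 2954).

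Klf15, a late factor that also governs amino acid and glucose metabolism, had a site shared by vWAT estradiol, vWAT vehicle and scWAT near its start. The summit lay 936 bp after the start in vWAT estradiol (6.09, rank 6273), 947 bp with vehicle (6.84, rank 1875) and 1113 bp in scWAT (2.84, rank 14825). BAT had no peak at Klf15. Its 4 Liver peaks (3.32 to 4.76, the strongest at rank 5576 of 21411) overlapped none of these. Of the genes of 10 to 100 kb, 7.12% had at least 4 Liver peaks. A vWAT estradiol peak 24.4 kb from the Klf15 span (5.24) was nearer to Cfap100.

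In vWAT most peaks that these genes had with estradiol were not matched by a vehicle peak. Of the 38 vWAT estradiol peaks, 4 were found with vehicle, 1 each at Pparg, Zfp423, Klf5 and Klf15. That is 10.5% (95% Wilson interval 4.17 to 24.1, which covers counting error alone), against 22.7% of the whole list. With both lists limited to 5193 peaks it was 3 of 11 (27.3%), against 43.7% of the list. When summits within 1 kb of the end of any protein-coding gene were set aside, a comparison chosen after seeing the data, 3 of 35 were found with vehicle (8.57%), against 11.2% of the list. 8 of the 9 genes had an estradiol-only peak (46.2% of all genes) and 4 had one held with vehicle (34.9%). In the other direction 4 of the 8 vehicle peaks were found with estradiol, against 63.8% of the vehicle list. The 4 held peaks ranked between 236 and 7622 of 20715 with estradiol. The 4 vehicle peaks without a vWAT estradiol counterpart lay at Pparg, Cebpa, Zfp423 and Klf4 and had enrichments of 3.61 to 4.01.

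Between tissues, overlap at these genes was read beside that of the whole lists. Of the 38 vWAT estradiol peaks, 14 were found in scWAT (36.8%, against 48.4% of the list), 5 in BAT (13.2%, against 11.1%) and 1 in Liver (2.63%, 0.466 to 13.5, against 22.8%). Away from gene ends, a comparison chosen after seeing the data, the counts in the same order were 13, 5 and 0 of 35. The shares of the list were 42.0%, 5.91% and 10.3%. The Wilson interval for the 0 of 35 found in Liver reaches up to 9.89%. All intervals in this paragraph cover counting error alone and treat peaks as independent. Zfp423 and Ebf1 held 9 each of the 38 peaks, so the intervals do not test a difference from the whole list. At 5193 peaks per list the counts were 4, 3 and 0 of 11, against 66.2%, 31.1% and 33.6%. Of the 8 BAT peaks 5 were found in vWAT estradiol (62.5%, 30.6 to 86.3, against 44.6% of the list) and 3 in scWAT (37.5%, 13.7 to 69.4, against 42.8%). Of the 23 Liver peaks 20 were found in no other list, against 71.4% of the whole Liver list, and the other 3 lay at Pparg, Cebpb and Cebpd. Of the 74 regions, 54 were held by 1 list, 14 by 2, 5 by 3 and 1 by 4. The regions in 3 lists lay at Pparg, Cebpb, Cebpd, Zfp423 and Klf15. Overlap between lists also depends on their length and strength, and read depth could not be matched.

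Other genes of the same pathway were read by the same rule. Of all protein-coding genes 61.5% had a peak in vWAT estradiol, 44.8% with vehicle, 61.0% in scWAT, 29.7% in BAT and 67.5% in Liver. The gene lists below were not matched to these on gene span, and their counts were not tested. Of 14 further factors that promote or sustain fat cell formation, all 14 had a vWAT estradiol peak, 12 a vehicle peak, 14 a scWAT peak, 8 a BAT peak and 13 a Liver peak. The strongest belonged to Stat5a and Stat5b, which share a peak (16.3, rank 268), Egr2 (14.7, rank 537), an early zinc finger factor, and Srebf1 (14.5, rank 568), a driver of lipid synthesis. For these 4 genes the strongest peak was held with vehicle. Of 9 factors that oppose fat cell formation, 6 had a vWAT estradiol peak, 6 a vehicle peak, 6 a scWAT peak, 2 a BAT peak and 8 a Liver peak. Gata2, Gata3 and Nr2f2 had no vWAT estradiol peak. The strongest of this list lay at Ddit3 (10.1, rank 2031), which encodes a C/EBP relative that blocks its partners, Klf3 (7.75), Tcf7l2 (5.25) and Zfp521 (4.97), the paralog of Zfp423. In this list the strongest peak was held with vehicle for Ddit3, Klf3 and Klf2, and not for Tcf7l2, Zfp521 or Klf7. Of 10 genes that act downstream in fat cells, 10 had a vWAT estradiol peak, 6 a vehicle peak, 9 a scWAT peak, 4 a BAT peak and 8 a Liver peak. The highest were at Cfd (21.5, rank 18), Lep (12.7, rank 961), Fabp4 (10.8, rank 1675) and Pck1 (10.4, rank 1867), and none of these 4 strongest peaks was held with vehicle. Among the other downstream genes the strongest peak was held for Cd36 (9.23, rank 2575), Adipoq and Cidec, and not for Lpl, Plin1 or Slc2a4.

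Of 22 paralogs of the 9 genes, 18 had a vWAT estradiol peak, against 61.5% of all protein-coding genes. The median was 1 peak, against 3 for the 9 genes, and with vehicle it was 1 in both. The groups were not matched on gene span. The numbers of paralogs with a peak were 13 with vehicle (44.8% of all genes), 16 in scWAT (61.0%), 6 in BAT (29.7%) and 21 in Liver (67.5%). Klf8, Klf14, Klf16 and Klf17 had no vWAT estradiol peak. Zfp521 had 1 peak in vWAT estradiol (rank 9880), 1 with vehicle and 1 in scWAT, where Zfp423 had 9, 2 and 2. In BAT Zfp521 had no peak and Zfp423 had 2, and in Liver they had 1 and 4. Ebf2, Ebf3 and Ebf4 had 5, 1 and 1 vWAT estradiol peaks, where Ebf1 had 9, and each of these 3 had 1 vehicle peak. Ppara and Ppard had 2 and 3, where Pparg had 6. 7 of the paralogs, Ebf2, Klf2, Klf3, Klf6, Klf7, Klf9 and Zfp521, also stand on the list of promoting or of opposing factors.

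Likeness of pattern was taken as the distance between genes over the 5 lists in the rank of their strongest peak, expressed as the percentage of the list that was weaker, with 0 for no peak. The strongest peaks of Zfp423 stood at 98.9 in vWAT estradiol, 88.2 with vehicle, 99.1 in scWAT, 98.0 in BAT and 56.2 in Liver. The nearest gene on another locus was Cldn34d, at a distance of 5.63. For Pparg, at 87.6, 70.8, 84.7, 71.2 and 81.1 in the same order, it was Eapp (8.89). Klf5 lay nearest to Pomc (4.92), Cebpd to Mcoln3 (4.73), Cebpa to Alg2 (4.65, tied with 1 other gene) and Klf15 to Glcci1 (9.41). Cebpb, Ebf1 and Klf4 had no gene within 10, the nearest being Col12a1 (10.02), Gmppb (13.6) and Ids (11.7, tied with 1 other). These distances cover 5 values each and describe the lists alone.

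At the limit of 25 kb, 17 peaks of the 9 genes lay 15 to 25 kb from a span and 10 more lay 25 to 35 kb away. The nearest outside was a Liver peak 25.6 kb from Klf15 (3.60), and the farthest inside was the vWAT estradiol peak 24.4 kb from the same gene (5.24).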

How the data were processed

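ERα ChIP-seq peaks of 5 groups were read from the authors' deposited lists (narrowPeak layout, no header). Per the submitters' processing notes, reads were handled on mm10 with tools that include HOMER and BWA (0.7.12), whose roles are not described. No peak caller, threshold, control or pooling of libraries is named in those notes or labels. The values that the authors deposited per peak are an enrichment ratio over an unstated background, a −log10 p-value, a −log10 q-value, and a score derived from the p-value. The vWAT libraries for H3K27ac and RNA were not analysed here.

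Peaks on chromosomes 1 to 19 and X were kept. Gene spans came from RefSeq (GRCm38.p6), which held all 9 genes, and transcription starts and promoter sequences from the RefSeq promoter table, which matched 7. A peak counted as found in another list when any peak there overlapped it (minimum 1 bp). Coordinates count from 1. Ranks use the enrichment ratio within a list, and the strength percentages give the share of a list at or above a value. Counts are set beside all 21627 protein-coding genes. With 1 list per group no test was run.

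Members, gene lists and alternatives were chosen with earlier results of these data known. Named peaks were each gene's strongest, those among the strongest 10%, and those that carry a comparison, the last chosen after their values were seen. Of each further gene list up to 4 genes were named by strongest vWAT estradiol peak. Counting was tested on simulated data. The software was matplotlib 3.10.9, scipy 1.17.1, pandas 2.3.3 and numpy 2.4.6 under Python 3.11.15.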

Additional observations from a re-analysis of the deposited data

How the results depend on the processing

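Of 125 recomputed counts, 88 stayed within 1.5 times the reported value. With the gene span alone, genes with a peak numbered 5 in vWAT estradiol, 5 in scWAT and 4 in Liver, and peaks 22 in vWAT estradiol, 5 in vWAT vehicle, 13 in scWAT, 5 in BAT and 12 in Liver. In that setting 2 vWAT estradiol peaks were found with vehicle, 7 in scWAT, 3 in BAT and 0 in Liver. A window of 10 kb gave 3 found in BAT and 0 in Liver. A window of 100 kb gave 73 peaks in vWAT estradiol, 14 with vehicle, 53 in scWAT and 48 in Liver, with 8 vWAT estradiol peaks found with vehicle, 31 in scWAT and 6 in Liver. A −log10 q-value of at least 2 left 5 peaks in vWAT vehicle, 5 in BAT and 10 in Liver. With every list held to 5193 peaks, vWAT estradiol had 11 peaks, vehicle 5, scWAT 4 (at 3 genes) and Liver 3 (at 3 genes), and of its peaks vWAT estradiol had 3 in common with vehicle, 4 with scWAT, 3 with BAT and 0 with Liver. Sharing by summits within 100 bp gave 8 found in scWAT and 0 in Liver. The count found in Liver was also 0 when the gene had to be the nearest protein-coding gene and, in a comparison added after seeing the data, away from gene ends. The window and the list length set these counts by construction.

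The window of 50 kb, an overlap of 50% of both peaks and ranking by p-value moved no count beyond that limit. No paired analysis was possible because each group has 1 list without values per library, and for the same reason no replicate could be left out. Read depth is unknown, and the lists rest on 1 to 4 libraries, so a peak missing from a list does not show that the receptor was absent.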
